A study of Mus musculus with 6 samples.

Results

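The aminoacyl-tRNA synthetases are the enzymes that join each amino acid to its tRNA, and 36 of their genes were examined, of 31641 genes in the deposited table. Members were taken by symbol from a fixed list, and all 36 had a row and enough counts to be tested. They fall into 20 genes of the cytosolic set and 16 of the mitochondrial set, whose symbols end in 2. E14, a mouse embryonic stem cell line, gave the RNA, which was sequenced after poly(A) selection in 6 libraries. The 3 knockdown libraries (KD-1 to KD-3) came from cells labelled Nat10 KD and given doxycycline. The 3 control libraries (CON-1 to CON-3) came from cells labelled Nat10 WT that had no doxycycline. Since every KD library and no CON library had doxycycline, the knockdown and the drug cannot be told apart. Whether replicates came from separate cultures is not in the labels, and the p-values therefore reflect a spread between these 6 libraries that may be technical.

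A synthetase first activates its amino acid with ATP and then transfers it to the end of the matching tRNA, and the loaded tRNA carries it to the ribosome. Cells run this reaction in the cytosol and again inside mitochondria, where a separate nuclear-encoded set of enzymes serves the tRNAs of the mitochondrial genome. Genes for many cytosolic synthetases are known targets of ATF4, the transcription factor that rises when amino acids run short or eIF2-alpha is phosphorylated. Nat10 is the acetyltransferase that makes N4-acetylcytidine, and with its adaptor Thumpd1 it acetylates tRNAs for serine and leucine.

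Levels are given as CPM, the counts of a gene relative to the size of its library after scaling by the trimmed mean of M-values (TMM), and values of single libraries are in the order of replicates 1 to 3. Library totals ranged from 33770755 to 39524273 counts in KD and from 35304394 to 39450202 in CON. Nat10 had 26.2, 27.2 and 28.7 CPM in KD and 145, 151 and 149.8 in CON, a 5.44-fold lower level in KD (edgeR adjusted p = 4.22e-14), and the gene is on chromosome 2 (103721256 to 103761270, reverse strand), in GRCm38 coordinates as for every position below. Of all 18019 genes tested, 63.0% passed at an adjusted p of 0.05, with 30.8% lower and 32.2% higher in KD. Among the 9538 tested genes at least as abundant as the least abundant member, 42.1% were lower and 34.0% higher, and both sets of shares are the background for the counts below. The 8 stem cell markers examined were all lower in KD, with a summed level of 2189 to 2270 CPM in KD and 5938 to 5970 in CON. Of 8 fibroblast markers, 4 of which were tested, 3 rose and 1 fell, with summed levels of 51.4 to 56.8 CPM in KD and 24 to 28.2 in CON. Of 8 neuronal markers 4 rose and 2 fell (88.1 to 96.2 CPM in KD, 147 to 150 in CON), and of 7 primitive endoderm markers 2 rose and 1 fell (44.9 to 46.4 CPM in KD, 45.8 to 51.1 in CON). Dcn, Lum and Dcx had no row, no marker with a row was at 0 in every library, and the part of these markers in the results below was not tested. KD-3 stood somewhat apart, since its chi-square against KD-1 and KD-2 was 14.6 and 10.9 per gene, against 2.99 between KD-1 and KD-2 and 2.69 to 5.07 between CON libraries.

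The cytosolic synthetases were lower in KD almost throughout. Of the 20 genes, 18 fell, 1 rose and 1 did not pass (edgeR, adjusted over all genes tested), against 30.8% of all genes and 42.1% of the genes of at least the members' level that fell. At a stricter rule that also asks for a change of at least 1.5-fold, 16 of the 20 fell, against 15.0% of all genes (32.9% in either direction) and 15.5% of the genes of at least the members' level. Their median log2 fold change was -1.20, against 0.02 over all genes tested. The KD libraries lay below every CON library for the same number, 18 of 20, where 32.8% of all genes did so (67.1% had no overlap in either direction). In bulk RNA, a smaller share of cells that express a gene and less RNA per cell cannot be told apart. Together the 20 mRNAs took up 0.387, 0.386 and 0.405% of all counts in KD, against 0.776, 0.778 and 0.785% in CON.

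The mitochondrial synthetases showed smaller changes, in both directions. Of the 16 genes, 9 fell, 1 rose and 6 did not pass, and 2 of the 9 fell by at least 1.5-fold, shares to be read against the same 42.1% and 15.5%. Their median log2 fold change was -0.30. The KD libraries lay below every CON library for 9 genes and above every CON library for 1, where 34.4% of all genes lay above. Their joint share of counts was 0.0802, 0.0799 and 0.0799% in KD and 0.0782, 0.0782 and 0.0785% in CON, so it was slightly higher in KD before TMM scaling. Iars2 alone had 8676, 8669 and 8106 counts in KD, of 31183, 31576 and 26974 for the class. In CON it had 7049, 7098 and 6729, of 28800, 30846 and 27708. It shares exonic bases with Rab3gap2, as given below. After TMM scaling the summed level of the class was 739 ± 3.65 CPM in KD and 848 ± 3.23 in CON (SD, n = 3 each). The direction of this summed level thus depends on the scaling, while the class median was negative under both scalings. With libraries scaled by their totals alone, which moves the median of all genes up by 0.23 on the log2 scale, 6 mitochondrial genes fell, 4 rose and the median was -0.07, while 17 cytosolic genes fell, 2 rose and the median was -0.97.

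**Figure D1:**
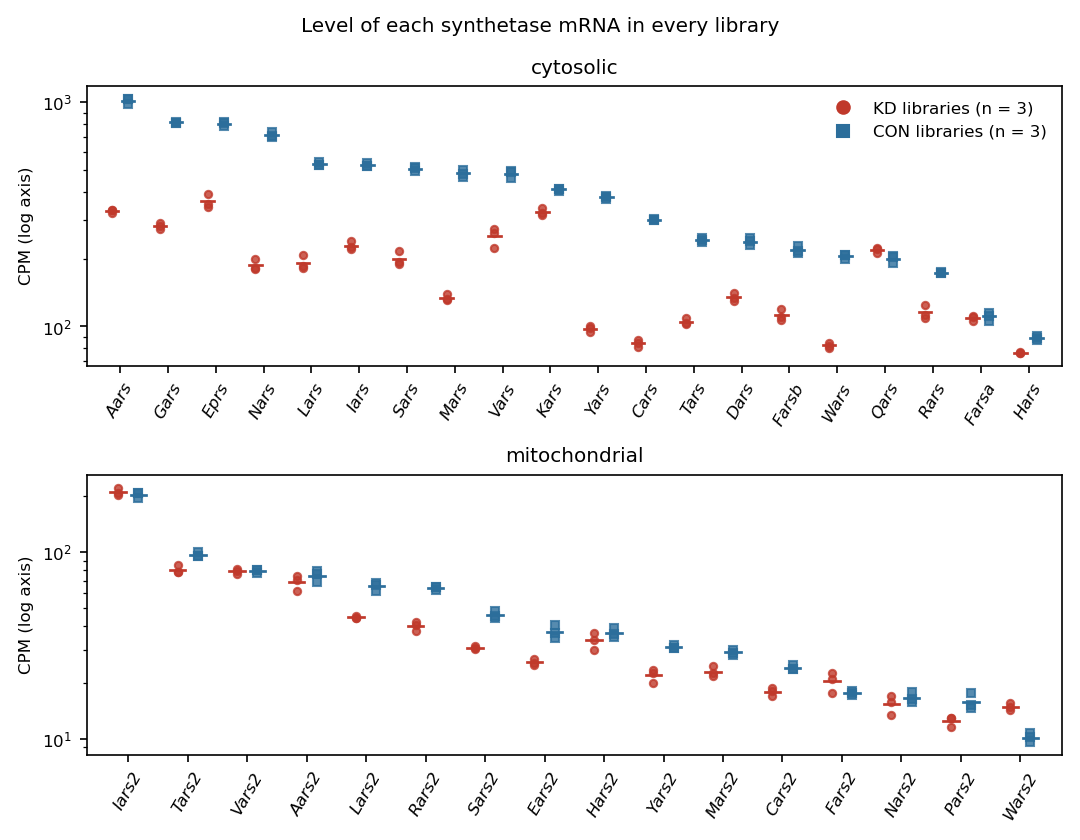
Level of each synthetase mRNA in CPM (log axis) in every KD library (circles, left) and CON library (squares, right), with a bar at the mean of 3. Most cytosolic genes, such as Aars at 328 CPM in KD and 1017 in CON, show a wide gap, and mitochondrial genes mostly a smaller one. Iars2, at 210.2 CPM in KD and 202.8 in CON, overlaps, whereas Rars2, at 40.2 CPM in KD and 64.2 in CON, does not.

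Among the cytosolic genes, the largest falls were those of Yars, Nars, Mars, Cars and Aars. Yars, which charges tRNA with tyrosine and lies on chromosome 4 (129189760 to 129219607, forward strand), had 94.5, 98.8 and 100.1 CPM in KD, against 369.7, 379 and 382 in CON. It was 3.86-fold lower in KD (edgeR adjusted p = 4.82e-14, log2 fold change -1.95 with SE 0.044), and 1.5% of tested genes had a lower log2 fold change. Nars, the asparagine enzyme on chromosome 18 (64499647 to 64516652, reverse strand), had 182, 181 and 200.4 CPM in KD and 707, 703 and 740.1 in CON, a 3.82-fold lower level in KD (edgeR adjusted p = 8.91e-14). The groups were far apart for both genes, with no KD library near any CON library.

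Mars, on chromosome 10 (127296221 to 127311786, reverse strand), attaches methionine, including that of the initiator tRNA. Its level was 139, 132 and 131 CPM in KD and 466, 498 and 480.1 in CON, 3.59-fold lower in KD (edgeR adjusted p = 7.21e-14). Its last exons lie tail to tail with Ddit3, which encodes the stress factor CHOP, and the genes share 68 exonic bases on opposite strands. Cars, the cysteine enzyme on chromosome 7 (143557230 to 143600090, reverse strand), had 81.4, 84.1 and 86.6 CPM in KD and 299.2, 300.4 and 299.96 in CON, and fell 3.57-fold (edgeR adjusted p = 6.64e-14). Aars, the alanine enzyme on chromosome 8 (111033144 to 111057664, forward strand), had 331, 332 and 322 CPM in KD, against 982, 1031 and 1038 in CON, where it was the most abundant of the 36 by counts, and it was 3.1-fold lower in KD (edgeR adjusted p = 7.21e-14). For these genes too the groups did not overlap, and the 3 CON values of Cars lay within 1 CPM of their mean. Exosc6, which had no row, shares 1326 exonic bases with Aars on the same strand, so counts of Aars may include its reads.

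Next in order came Gars, Lars, Sars, Wars, Tars, Iars and Eprs. Gars, the glycine enzyme, averaged 280.5 ± 8.64 CPM in KD and 813 ± 5.64 in CON (SD, n = 3 each), 2.9-fold lower in KD. Lars and Sars charge the leucine and serine tRNAs that Nat10 acetylates, and LARS is also known as a leucine sensor for mTORC1. Lars averaged 192 ± 13.9 CPM in KD and 533 ± 9.61 in CON, and Sars 200.1 ± 15.1 CPM in KD and 505 ± 10.0 in CON (SD, n = 3 each). They fell 2.77-fold and 2.52-fold, within the range of the other cytosolic genes. Wars, the tryptophan enzyme, fell 2.49-fold, Tars, the threonine enzyme, 2.31-fold, Iars, the isoleucine enzyme, 2.29-fold, and Eprs, a fused enzyme for glutamate and proline, 2.22-fold. Vars, the valine enzyme, fell 1.9-fold to 253 ± 25.2 CPM in KD, against 480.3 ± 18.3 in CON, and KD-3 was its lowest library at 224 CPM.

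The phenylalanine enzyme is built from a pair of alpha and a pair of beta subunits, encoded by Farsa and Farsb, and only Farsb was called. Farsb had 110.0, 107 and 120.1 CPM in KD and 229, 214 and 217 in CON, 1.96-fold lower in KD (edgeR adjusted p = 3.61e-10). Farsa did not pass, with 111, 106 and 110.0 CPM in KD and 106, 111 and 115 in CON (edgeR adjusted p = 0.695, log2 fold change -0.02 with SE 0.049). The Farsa libraries of both groups overlap, and with libraries scaled by their totals alone Farsa was called higher (log2 fold change 0.21, edgeR adjusted p = 0.00153). Farsb shares 248 exonic bases with Sgpp2 on the opposite strand, which had at most 73 counts in any library.

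Qars, the glutamine enzyme on chromosome 9 (108507706 to 108515941, forward strand), was the sole cytosolic member called higher. Its level was 221, 213 and 223 CPM in KD and 192, 206 and 205 in CON, 1.09-fold higher in KD (edgeR adjusted p = 0.0258, log2 fold change 0.12 with SE 0.045). This call was lost with DESeq2 (adjusted p = 0.0522), and in edgeR without CON-1 (adjusted p = 0.174), CON-3 (0.0659) or KD-1 (0.0773). The smallest falls were those of Dars for aspartate (1.77-fold), Rars for arginine (1.51-fold), Kars for lysine (1.26-fold) and Hars for histidine (1.16-fold). Hars had 75.9, 75.8 and 77 CPM in KD and 87.2, 90.4 and 88.5 in CON, and it was not lower with libraries scaled by their totals alone (log2 fold change 0.01).

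**Figure D2:**
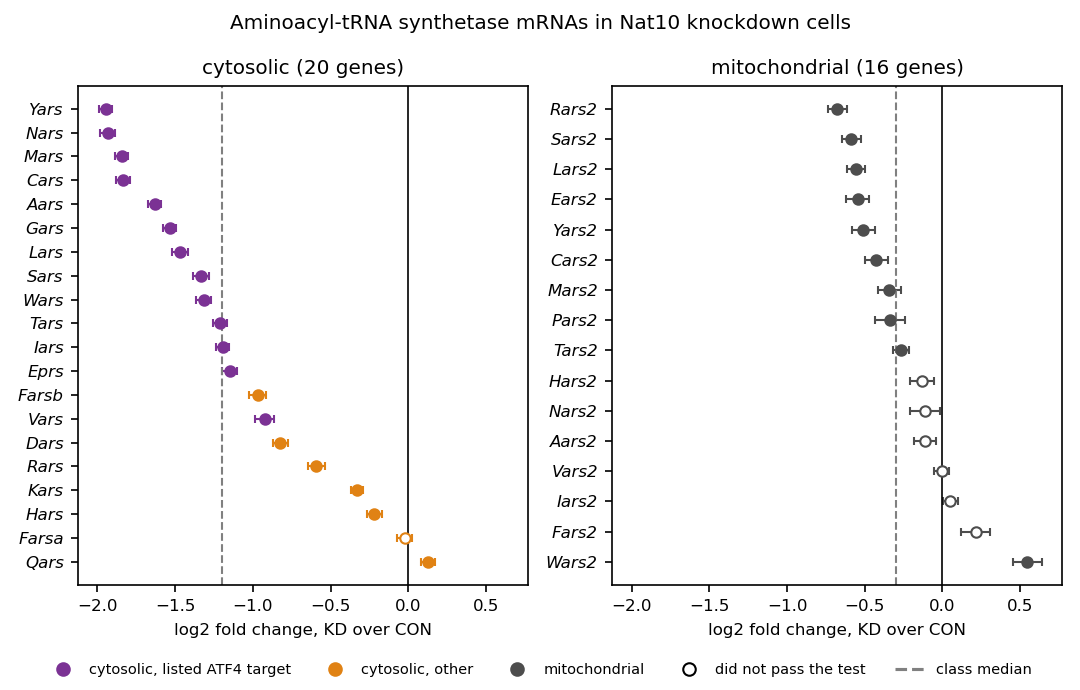
Log2 fold change of each gene, KD over CON, with its standard error as a bar, for 20 cytosolic (left) and 16 mitochondrial genes (right); open circles did not pass the test and dashed lines mark the class medians of -1.20 and -0.30. All 13 cytosolic genes listed as ATF4 targets lie at or below -0.93, and the other 7 run from -0.97 to 0.12.

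The cytosolic set was divided by known features of the enzymes, with lists drawn up when results of these libraries were already known, so the counts are a description. Of 13 genes generally given as ATF4 targets, all 13 fell, each by at least 1.5-fold, and their median log2 fold change was -1.47. Of the other 7, namely Dars, Farsa, Farsb, Hars, Kars, Qars and Rars, 5 fell and 3 did so by at least 1.5-fold, with a median of -0.33. The 13 summed to 2501 to 2604 CPM in KD and 6933 to 7058 in CON, and the 7 to 1063 to 1135 CPM in KD and 1437 to 1453 in CON. Atf4 itself had 92.5, 93.1 and 89.5 CPM in KD, against 386, 386 and 390.4 in CON, 4.23-fold lower in KD (edgeR adjusted p = 2.01e-14).

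The set was also divided by structure. Synthetases fall into catalytic class I and class II, which have unrelated active-site folds. Eprs, whose glutamate part is class I and whose proline part is class II, was counted in class I. Of 10 cytosolic class I genes, 9 fell, with a median of -1.26, and of 10 class II genes, 9 fell, with a median of -1.09. The multi-tRNA synthetase complex holds 8 of the cytosolic members, the products of Eprs, Iars, Lars, Mars, Qars, Rars, Kars and Dars. Of these 7 fell, with a median of -0.99, against 11 of the 12 free enzymes, with a median of -1.33. The complex members ran from Mars at -1.85 to Qars at 0.12.

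The complex is held together by the non-enzymatic scaffolds AIMP1, AIMP2 and EEF1E1, and their 3 genes fell as well. Aimp1 averaged 55.9 ± 3.94 CPM in KD and 110.4 ± 2.18 in CON, 1.98-fold lower in KD. Eef1e1 averaged 39.8 ± 1.85 CPM in KD and 62.8 ± 0.65 in CON, and Aimp2 26.2 ± 1.16 CPM in KD and 34.4 ± 0.932 in CON (SD, n = 3 each). Aimp2 shares 487 exonic bases with Eif2ak1 on the opposite strand, and Aimp1 163 with Tbck.

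Promoters of cytosolic members were searched for the core of the C/EBP-ATF response element through which ATF4 acts, TGATGNAA, on both strands. Windows ran from 250 bases before to 50 bases after the annotated start (RefSeq, GRCm38.p6) and were held for 13 cytosolic and 14 mitochondrial members. Cars, Hars, Lars, Nars, Rars, Vars, Wars, Hars2 and Pars2 had no window and were not searched. The core was found in 5 of the 13 cytosolic windows, in 0 of the 14 mitochondrial ones and in 4.51% of the 27025 genes with a window. That share includes genes that were not tested for expression. Among tested genes with a window, 356 held the core and 12249 did not. The 5 genes, Yars, Aars, Gars, Tars and Iars, are all on the ATF4 target list, of which 8 had a window. Their promoters are shown 5′ to 3′ on the strand of the gene, with each match in capitals.
Yars (chr4:129189653-129189952, forward strand): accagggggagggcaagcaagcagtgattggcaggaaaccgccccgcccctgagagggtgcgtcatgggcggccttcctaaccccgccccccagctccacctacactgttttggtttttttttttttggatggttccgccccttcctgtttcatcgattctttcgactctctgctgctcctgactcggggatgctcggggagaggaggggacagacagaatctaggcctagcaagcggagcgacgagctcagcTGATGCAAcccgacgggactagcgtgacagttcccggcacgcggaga
Aars (chr8:111033592-111033891, forward strand): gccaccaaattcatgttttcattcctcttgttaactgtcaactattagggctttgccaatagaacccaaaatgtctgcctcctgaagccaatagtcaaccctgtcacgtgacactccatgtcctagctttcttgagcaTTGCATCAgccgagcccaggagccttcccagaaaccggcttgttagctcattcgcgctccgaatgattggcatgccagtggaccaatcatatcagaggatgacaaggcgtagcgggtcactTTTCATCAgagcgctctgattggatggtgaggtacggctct
Gars (chr6:55037751-55038050, forward strand): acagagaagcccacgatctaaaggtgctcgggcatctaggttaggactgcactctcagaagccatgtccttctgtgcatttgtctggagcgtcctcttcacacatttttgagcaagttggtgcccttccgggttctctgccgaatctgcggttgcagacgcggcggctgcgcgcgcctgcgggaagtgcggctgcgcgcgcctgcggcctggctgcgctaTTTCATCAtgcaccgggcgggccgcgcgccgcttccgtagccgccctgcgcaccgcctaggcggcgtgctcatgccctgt
Tars (chr15:11399609-11399908, reverse strand): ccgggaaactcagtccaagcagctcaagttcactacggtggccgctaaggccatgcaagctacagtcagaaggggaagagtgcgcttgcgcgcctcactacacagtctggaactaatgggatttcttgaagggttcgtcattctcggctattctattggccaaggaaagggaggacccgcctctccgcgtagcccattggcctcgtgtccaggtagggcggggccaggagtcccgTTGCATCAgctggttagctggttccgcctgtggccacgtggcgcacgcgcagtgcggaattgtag
Iars (chr13:49681880-49682179, forward strand): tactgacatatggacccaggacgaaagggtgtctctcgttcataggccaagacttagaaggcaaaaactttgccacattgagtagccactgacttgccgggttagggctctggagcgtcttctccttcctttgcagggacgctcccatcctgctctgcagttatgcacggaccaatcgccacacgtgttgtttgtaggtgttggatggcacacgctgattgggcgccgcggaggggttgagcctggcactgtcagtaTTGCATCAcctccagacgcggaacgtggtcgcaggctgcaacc

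In Aars, Gars, Tars and Iars the match is on the strand opposite to the gene and so reads as its reverse complement, while in Yars it is on the strand of the gene. Counted from 1 at the annotated start, the match began at base 4 in Yars, 8 in Iars and 10 in Aars, and it began 15 bases before the start in Tars and 30 in Gars. A further match in Aars began 112 bases before the start. These positions use the RefSeq start and depend on the annotation. The GENCODE gene starts at 129189760 in Yars, 49682100 in Iars and 111033144 in Aars. The matches given first for these began at 129189906, 49682137 and 111033851. The members with a match fell between 2.29-fold (Iars) and 3.86-fold (Yars). The windows of Mars, which fell 3.59-fold, and Qars, which was called 1.09-fold higher, are shown for contrast, and neither holds a match.
Mars (chr10:127311737-127312036, reverse strand): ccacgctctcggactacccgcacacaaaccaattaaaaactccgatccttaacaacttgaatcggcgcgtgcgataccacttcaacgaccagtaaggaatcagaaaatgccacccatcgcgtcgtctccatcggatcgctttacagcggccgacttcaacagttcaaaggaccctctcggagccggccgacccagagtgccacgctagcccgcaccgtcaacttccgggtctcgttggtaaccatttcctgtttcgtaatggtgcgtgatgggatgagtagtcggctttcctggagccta
Qars (chr9:108507755-108508054, forward strand): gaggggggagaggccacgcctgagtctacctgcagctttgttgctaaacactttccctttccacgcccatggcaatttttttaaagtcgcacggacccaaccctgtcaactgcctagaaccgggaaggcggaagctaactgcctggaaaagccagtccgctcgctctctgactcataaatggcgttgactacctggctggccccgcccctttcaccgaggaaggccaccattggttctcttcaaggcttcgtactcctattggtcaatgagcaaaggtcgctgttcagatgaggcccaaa

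No match says only that these letters are not in this window. Across all genes, 35.4% of 356 tested genes with a match fell and 29.5% rose, against 32.2% and 35.5% of 12249 tested genes with a window and no match. No other motif was searched, so overlaps with other elements were not examined.

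**Figure D3:**
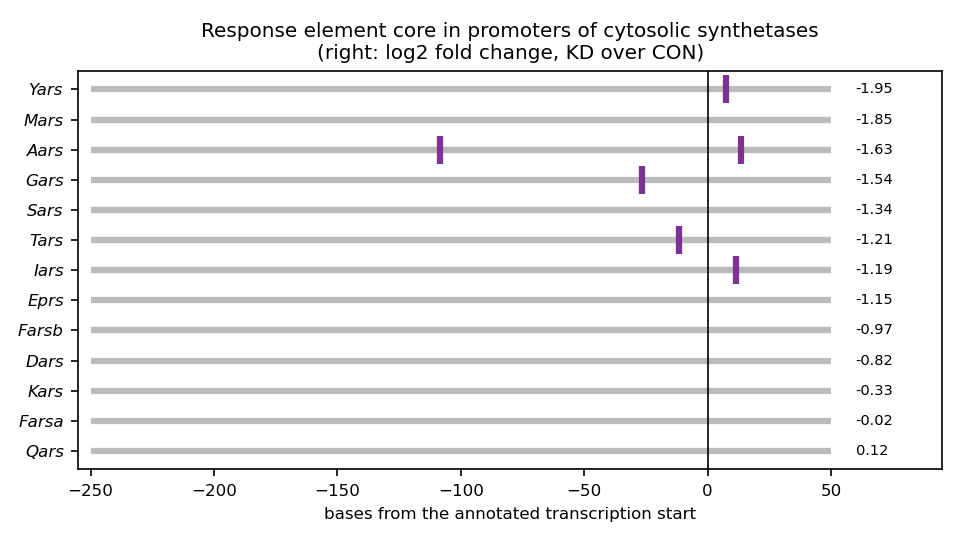
Position of the response element core (purple marks) in the promoter windows of 13 cytosolic synthetase genes, in bases from the annotated start, with the log2 fold change (KD over CON) at the right. Marks are present in Yars, Aars, Gars, Tars and Iars, with log2 fold changes of -1.95 to -1.19, and absent from the others, of which Mars had -1.85.

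Of the mitochondrial genes, Rars2, Sars2, Lars2 and Ears2 fell most and Wars2 rose. Rars2, the mitochondrial arginine enzyme on chromosome 4 (34614957 to 34660167, forward strand), had 37.6, 40.7 and 42.2 CPM in KD and 65.3, 62.2 and 65.1 in CON, 1.6-fold lower in KD (edgeR adjusted p = 9.77e-08, log2 fold change -0.68 with SE 0.06). Sars2, the serine enzyme, had 31.3, 30.6 and 30.2 CPM in KD and 44.2, 48.4 and 45.6 in CON, 1.5-fold lower. Lars2, the leucine enzyme, had 44.1, 45.6 and 44.3 CPM in KD and 66.3, 61.8 and 68.7 in CON, 1.47-fold lower. For these genes the groups did not overlap, but the gaps were small beside those of the cytosolic genes that fell most. On the log2 scale Rars2 fell more than the cytosolic genes Rars (-0.59), Kars (-0.33) and Hars (-0.22).

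Ears2, which loads glutamate, also supplies the mischarged tRNA from which mitochondrial glutaminyl-tRNA is made, as no glutamine enzyme works there. Its level was 25.3, 26.9 and 24.9 CPM in KD and 37.1, 40.7 and 34.8 in CON, 1.46-fold lower in KD (edgeR adjusted p = 8.26e-06). Among the amidase subunits that complete that step, Gatb averaged 18.5 ± 0.818 CPM in KD and 25.4 ± 2 in CON and fell 1.37-fold. Gatc averaged 26.5 ± 1.31 CPM in KD and 22.2 ± 0.513 in CON and rose 1.19-fold, and Qrsl1 did not pass, at 19.5 ± 0.282 CPM in KD and 20.8 ± 0.507 in CON (edgeR adjusted p = 0.295).

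Wars2, the mitochondrial tryptophan enzyme on chromosome 3 (99141068 to 99239186, forward strand), had 14.3, 15.5 and 14.7 CPM in KD and 9.59, 10.2 and 10.7 in CON. All 3 KD libraries were above all CON libraries, and the gene was 1.46-fold higher (edgeR adjusted p = 7.72e-05, log2 fold change 0.55 with SE 0.091). It was the least abundant of the 36 in CON, with raw counts of 598, 664 and 540 in KD and 327, 371 and 348 in CON. Smaller falls were those of Yars2 (1.42-fold), Cars2 (1.34-fold), Mars2 (1.27-fold), Pars2 (1.26-fold) and Tars2 (1.2-fold), for tyrosine, cysteine, methionine, proline and threonine. Pars2 did not pass without CON-2 (edgeR adjusted p = 0.0504), and Mars2, Pars2 and Tars2 did not pass with libraries scaled by their totals alone (edgeR adjusted p = 0.19, 0.337 and 0.555).

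For 6 mitochondrial genes the groups overlapped and the test was not passed. Iars2, the most abundant of the mitochondrial set by counts in KD and in CON, had 207, 202 and 221 CPM in KD and 207, 195 and 207 in CON (edgeR adjusted p = 0.362). It shares 2034 exonic bases with Rab3gap2 on the opposite strand, and as the strand handling was not stated, reads of such partners cannot be told apart. Rab3gap2 had 5508, 5626 and 4912 counts in KD and 3730, 3781 and 3428 in CON. Vars2 shares 465 exonic bases in this way with Gm20483, Fars2 501 with Nrn1, Cars2 422 with Naxd and Nars2 284 with C230038L03Rik. Vars2 had 81.2, 78.9 and 76.5 CPM in KD and 77, 80.0 and 80.4 in CON (edgeR adjusted p = 0.937). Both were called higher with libraries scaled by their totals alone (log2 fold change 0.28 and 0.22).

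Aars2, whose human counterpart is mutated in a fatal cardiomyopathy, had 74.4, 71.2 and 61.9 CPM in KD and 69.1, 78.8 and 76.3 in CON (edgeR adjusted p = 0.184), and it was called lower without KD-1 (adjusted p = 0.0472). Hars2 had 29.9, 33.9 and 37 CPM in KD and 39, 36.2 and 35 in CON (edgeR adjusted p = 0.162), and it was called lower without KD-3 (log2 fold change -0.21, adjusted p = 0.00731). Fars2 had 22.5, 21 and 17.6 CPM in KD and 18, 17.2 and 17.7 in CON (edgeR adjusted p = 0.0549), and it was called higher without KD-3 (log2 fold change 0.30, adjusted p = 0.00116) and with libraries scaled by their totals alone (0.44, adjusted p = 0.000543). Nars2 had 13.5, 15.8 and 16.9 CPM in KD and 17.8, 16.3 and 15.8 in CON (edgeR adjusted p = 0.331). In Hars2 KD-3 alone lay within the CON range and the other KD libraries below it, whereas in Fars2 KD-1 and KD-2 lay above every CON library.

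**Figure D4:**
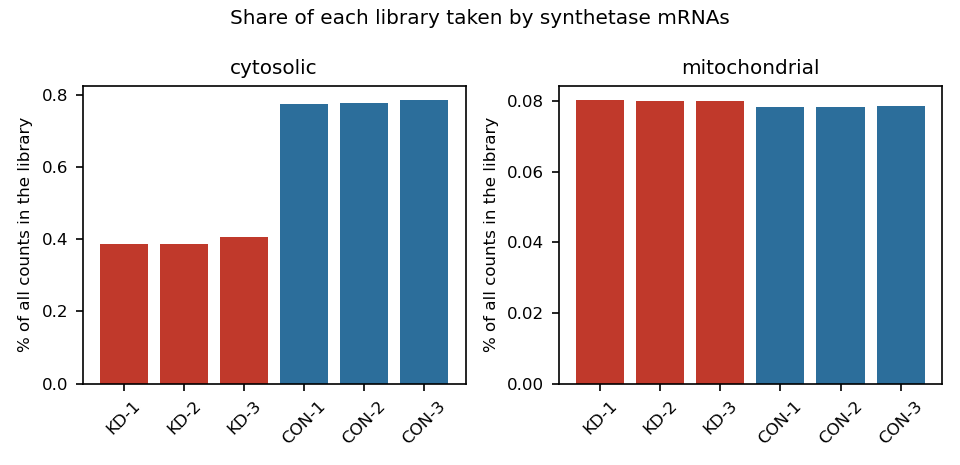
Share of all counts in each library (%) taken by the 20 cytosolic (left) and 16 mitochondrial (right) synthetase mRNAs, with KD libraries in red and CON libraries in blue. The cytosolic bars stand at 0.386 to 0.405% in KD and 0.776 to 0.785% in CON, and the mitochondrial bars at 0.0799 to 0.0802% in KD and 0.0782 to 0.0785% in CON.

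The classes were also compared within each library. The mean log2(CPM + 1) of the cytosolic genes exceeded that of the mitochondrial genes by 2.21, 2.19 and 2.3 in KD and by 3.1, 3.1 and 3.12 in CON. The difference in this gap was -0.87 (KD minus CON, log2 scale), and no p is given because the members were chosen with results known. It was also -0.87 under each scaling tried. That was fixed in advance, since the scaling of a library cancels within it apart from the added 1. Per length, in FPKM as deposited by the authors, the summed cytosolic level was 5.62, 5.56 and 5.93 times the mitochondrial one in KD and 11, 10.9 and 11 times in CON. The length in FPKM is that of all annotated exons of a gene joined, such as 18102 bases for Eprs and 11294 for Mars2. It can exceed the length of an mRNA, so levels per length of different genes compare only roughly. The same length serves KD and CON.

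The same balance was followed for single amino acids in 17 pairs of a cytosolic and a mitochondrial gene, of which Eprs and Fars2 are each in 2. The cytosolic gene was above the mitochondrial one per length in every library of all 17. The ratio was lower in every KD library than in every CON library for 14 pairs and higher for 0, and it overlapped for 3. Separation was common in these libraries, as 67.1% of all tested genes had no overlap in either direction. The share for ratios of other gene pairs was not computed. With 3 libraries against 3, the exact two-sided permutation test cannot go below p = 0.1, the value of these 14 pairs, and no pair passes 0.05.

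The widest changes were those of Wars/Wars2, Nars/Nars2, Aars/Aars2 and Mars/Mars2. Wars was 9.74, 9.14 and 9.91 times as abundant as Wars2 per length in KD, against 36.1, 35.2 and 33.6 times in CON, and the pair is one in which the members moved in opposite directions. Nars was 21.6, 18.3 and 19 times as abundant as Nars2 in KD and 63.5, 69.1 and 75.2 times in CON. Aars was 2.28, 2.39 and 2.68 times as abundant as Aars2 in KD and 7.3, 6.72 and 6.98 times in CON. The log2 ratio changed by -1.86, -1.82 and -1.52 in these pairs, KD minus CON.

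In KD the balance came closest to even for threonine and isoleucine. Tars was 1.41, 1.56 and 1.65 times as abundant as Tars2 per length in KD and 3, 2.9 and 2.95 times in CON, and Iars 1.84, 1.85 and 1.82 times as abundant as Iars2 in KD and 4.36, 4.47 and 4.24 times in CON. The 3 pairs that overlapped were Farsa/Fars2, Hars/Hars2 and Rars/Rars2. Hars and Hars2 lie head to head on chromosome 18 and share 195 exonic bases on opposite strands, and their log2 fold changes were -0.22, which passed, and -0.13, which did not. Hars was 4.43, 3.91 and 3.64 times as abundant as Hars2 in KD and 3.91, 4.36 and 4.42 times in CON. Rars and Rars2 both fell, with log2 fold changes of -0.59 and -0.68, and Rars was 2.48, 2.39 and 2.54 times as abundant as Rars2 in KD and 2.28, 2.39 and 2.31 times in CON.

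**Figure D5:**
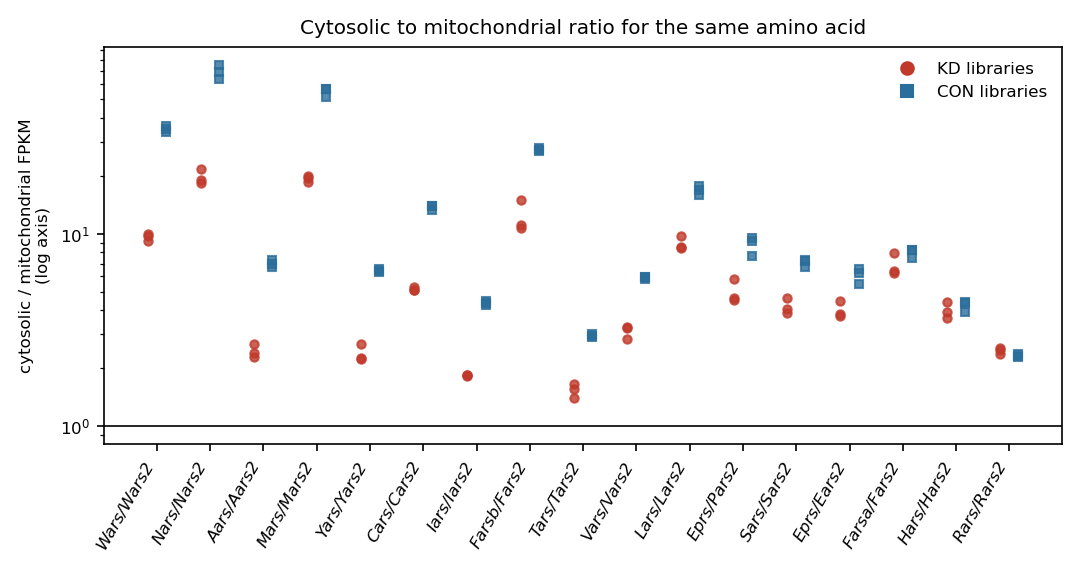
Ratio of cytosolic to mitochondrial FPKM (log axis) in each KD library (circles, left) and CON library (squares, right) for 17 pairs that charge the same amino acid, ordered by the change. All ratios are above 1, and KD lies below CON in 14 pairs, with Farsa/Fars2, Hars/Hars2 and Rars/Rars2 overlapping at the right.

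Gars and Kars also serve mitochondria, since each encodes both a cytosolic and a mitochondrial form. Gars had the highest level per length of all 36 in both groups, 97.3 ± 3 FPKM in KD and 241 ± 2.28 in CON (SD, n = 3 each). Kars was second in KD with 78.9 ± 2.99 FPKM, against 84.6 ± 0.91 in CON. Per length the cytosolic genes spanned 13.8 FPKM (Cars) to 97.3 (Gars) in KD and 22.6 (Farsa) to 241 (Gars) in CON, and the mitochondrial genes 2.20 (Mars2) to 25.6 (Iars2) in KD and 1.58 (Wars2) to 21.4 (Rars2) in CON. The highest cytosolic level was 7.05-fold the lowest in KD and 10.7-fold the lowest in CON. FPKM is scaled to library totals and not by TMM, and on that scale Farsa stood at 26 ± 0.614 FPKM in KD and 22.6 ± 0.869 in CON, and Hars at 33.7 ± 0.343 in KD and 33.5 ± 0.552 in CON (SD, n = 3 each).

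In the authors' deposited table, 18 cytosolic genes were lower in KD and 0 higher at an adjusted p of 0.05. For the mitochondrial set the authors' deposited table had 9 lower and 1 higher. Qars did not pass there, with an adjusted p of 0.0717 in the authors' deposited table. Turned to KD over CON, the authors' log2 fold changes match those of DESeq2 here, such as -1.64 for Aars and -1.96 for Yars. They come from the same counts, so they are not separate evidence.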

How the data were processed

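Poly(A)-selected RNA from 6 libraries was sequenced on an Illumina HiSeq, per the labels' design text. Per the submitters' processing notes, FastQC 0.11.9, STAR 2.5.3a, featureCounts and the build mm10 were used. The annotation release, the handling of strand and of multi-mapping reads, and the authors' test were not given in the sources used here. Deposited was 1 table with raw counts per gene, per the file headers, and FPKM that the authors made from those counts, library totals and 1 length per gene. It also holds the authors' log2 fold change (CON over KD, from the values) and adjusted p-value. Columns were matched to samples by treatment and number. Of counts from 1 to 20, between 70 and 71.7% were even, so both mates of a pair may have been counted.

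The counts went into edgeR 4.0.16 (R 4.3.3): filterByExpr (18019 genes kept), TMM factors of 1.08 in KD and 0.922 to 0.926 in CON, and the robust quasi-likelihood F-test, with Benjamini-Hochberg adjustment over all genes tested and a threshold of 0.05. SE is the log2 fold change over the square root of F. The fit was tested on simulated data with few changed genes, equal in number up and down. The scaling was thus not tested for changes as wide as those here. Alternatives were DESeq2 1.42.0, other scalings and filters, halved counts, a replicate block and leaving out each library.

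Members and lists were chosen with earlier results of these data known. Values of each library are given for the 5 largest changes per class, genes called against their class and genes not called, and for Farsb and Hars beside these; the rest are given by mean and SD or by fold alone. Of other charging genes up to 3 called ones per list, by smallest p, are named. Positions and overlaps are from GENCODE M21 (GRCm38), and 99.6% of identifiers were found there. A search of its transcripts for copies of at least 95% identity over 200 bases found, beside overlapping genes, 1 related gene, Gm4849 for Iars, with at most 4 counts. Aars shares 1326 exonic bases with Exosc6 on its own strand, and Exosc6 had no row.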

Additional observations from a re-analysis of the deposited data

How the results depend on the processing

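Of 36 members, 24 kept their direction and their side of the threshold in all 13 alternatives. Without each library in turn, 18 cytosolic genes fell each time and 8 to 10 mitochondrial genes fell, 0 to 1 cytosolic and 1 to 2 mitochondrial genes rose, and the class gap in mean log2 CPM changed by -0.91 to -0.85. With scaling by library totals alone, 29.9% of all calls were lower, against 48.9% in the fit reported, 2 cytosolic and 4 mitochondrial genes rose, and the medians were -0.97 (cytosolic) and -0.073 (mitochondrial). Directions turned under it for Farsa (0.21), Hars (0.0103), Aars2 (0.12), Hars2 (0.10), Nars2 (0.12) and Vars2 (0.22), all log2 fold changes, by the common shift of 0.23. Without each library in turn Vars2 ranged from -0.0347 to 0.0105 and turned without CON-3 (0.0012) and KD-3 (0.0105), and for these and the other changes below the cause was not tested. A required 1.5-fold change left 5931 genes called in all and 2 mitochondrial falls. The cytosolic rise was 0 genes with DESeq2 and 0 with the replicate block, in which Qars had edgeR adjusted p = 0.0582, and the mitochondrial rises were 2 genes with no count filter and 2 with halved counts, where Fars2 passed too. Same-numbered libraries did not deviate together (correlations of -0.06, 0.02 and -0.04), so the numbers were not taken as pairs, and the block changed no other call of a member. Genes of low level, such as Wars2 and Pars2, have the larger standard errors, while with halved counts 35 of the 36 members kept their direction and their side of the threshold.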

Other observations

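Other genes of tRNA charging, production and delivery were examined as well. Of the 45, 18 fell, 9 rose and 18 were not called, and their median log2 fold change was -0.07, against 30.8% of all genes that fell and 32.2% that rose, and 42.1% and 34.0% of genes at least as abundant as the least abundant synthetase gene. The balance turned with libraries scaled by their totals alone, where 13 fell, 22 rose and the median was 0.16. Xpot, which exports tRNA from the nucleus and is also a known ATF4 target, fell 1.94-fold, with 136 ± 5.44 CPM in KD and 264 ± 5.95 in CON, and Trnt1, which adds the CCA end, fell 1.54-fold. Of 20 genes of RNA polymerase III and its factors 8 fell and 4 rose. Gtf3c1, a subunit of the tRNA gene factor TFIIIC, rose 1.77-fold with 340.0 ± 11.3 CPM in KD and 192 ± 5.04 in CON, and Brf1, a subunit of TFIIIB, rose 1.53-fold, while Gtf3c6 fell 1.92-fold. With libraries scaled by their totals alone, 5 of the 20 fell and 11 rose. The tRNA genes themselves were not analysed here.

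Of 7 tRNA splicing and end-processing genes 3 fell and 1 rose, but with libraries scaled by their totals alone 1 fell and 4 rose. Counts of these small lists are to be read against the 30.8% of all genes that fell and 32.2% that rose. Of genes at least as abundant as the least abundant synthetase gene, 42.1% fell and 34.0% rose. The splicing endonuclease genes Tsen15 and Tsen34 fell 1.45-fold and 1.2-fold, and Elac2, which trims the end of precursor tRNAs, fell 1.21-fold, with 84.3 ± 2.85 CPM in KD and 102 ± 1.74 in CON (SD, n = 3 each). The elongation factors that carry loaded tRNA to the ribosome moved in opposite directions. Cytosolic Eef1a1 fell 1.37-fold, with 8716 ± 385 CPM in KD and 11949 ± 58 in CON, and mitochondrial Tufm rose 1.61-fold, with 142 ± 4.36 CPM in KD and 88.6 ± 5.7 in CON (SD, n = 3 each). Of 5 genes for editing and the cytosolic paralog Tarsl2, Dtd2 rose 1.12-fold and 4 did not pass, and with library totals alone 3 rose. Of the selenocysteine pathway, Pstk rose 1.36-fold and Sepsecs did not pass, but Pstk shares 4652 exonic bases with Ikzf5 on the opposite strand.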
